A study of Homo sapiens with 6 samples.

Results

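Genes of major histocompatibility complex (MHC) class I antigen presentation were followed in the liver cancer cell line SNU449. They were chosen from a list of 9 symbols covering class I heavy chains, peptide transport and peptide loading. Of the 9 symbols, 4 had a row among the 13117 genes of the table: B2M, TAPBP, PDIA3 and ERAP1. HLA-B, HLA-C, HLA-E, TAP1 and TAP2 are not analysed here. Both groups held the FOXO1AAA construct, whose product is a FOXO1 transcription factor that the kinase AKT cannot restrain, in the doxycycline-inducible vector pInducer20. The 3 Cont libraries came from cells kept without doxycycline and the 3 Dox libraries from cells given 2 µM doxycycline hydrochloride for 48 h, with the genotype labelled WT throughout. There was no doxycycline control lacking the construct, so effects of the drug and of the protein cannot be told apart. The labels do not say whether replicate libraries stem from separate cultures, so p-values measure only the spread between these samples, and that may be technical.

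Class I molecules show short peptides from inside the cell to CD8+ T cells. Peptides cut by the proteasome enter the endoplasmic reticulum, where a heavy chain pairs with beta-2-microglobulin and receives a peptide in a loading complex built around tapasin. Aminopeptidases of the endoplasmic reticulum trim the peptides first, and interferons raise transcription of most of these genes, partly through interferon-stimulated response elements near their starts.

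The RefSeq promoter windows (GRCh38.p14, 250 bases before to 50 bases after each annotated start) held entries for 3 of the 4 genes: B2M, TAPBP and ERAP1. The core of an interferon-stimulated response element, which is GAAA, then 2 bases of any kind, then GAAA again, was searched on both strands and was in a window of each of these 3 genes and in 3.57% of all 35116 windows. The stretches of 30 bases around the matches are shown because this motif is shared by genes whose levels went different ways. Each is written 5′ to 3′ on the strand of its gene, with the matching bases in capitals. B2M and TAPBP each held 2 overlapping matches, and the match of ERAP1 lay on the opposite strand, just after the start.
B2M, chr15:44711366-44711395, plus strand: actctaaGAAAAGGAAACTGAAAacgggaa
TAPBP, chr6:33314076-33314105, minus strand: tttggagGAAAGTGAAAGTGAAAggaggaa
ERAP1, chr5:96807924-96807953, minus strand: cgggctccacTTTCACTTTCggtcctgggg
The forkhead core GTAAACA, in 3.42% of all windows, had no match in the windows of these 3 genes. The letters CCAAT, bound by NF-Y, were matched in those of B2M and ERAP1 and in 34.6% of all windows. A match describes the letters only and is no evidence of binding.

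In Dox, ERAP1 rose 1.55-fold, TAPBP and PDIA3 fell to 0.722 and 0.799 of their Cont means, and B2M did not pass the test. In bulk RNA, fewer cells carrying a transcript and less of it per cell cannot be told apart. Levels are FPKM, fragment counts normalised to transcript length and library size. All 4 genes passed the filter on low values, an FPKM of 1 or more in 3 or more libraries. At a limma adjusted p under 0.05, 1 of the 4 rose and 2 fell. Of the 11526 genes tested, 37.6% rose, 42.8% fell and 80.4% were called in either direction, so a share of 3 in 4 is near the background. In both groups the order of the levels was B2M, PDIA3, TAPBP and ERAP1, and the values of neighbours in that order did not overlap in either group. By rough estimates of read number the lowest of the 4 genes, ERAP1, rested on about 1295 to 3549 reads per library.

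**Figure D1:**
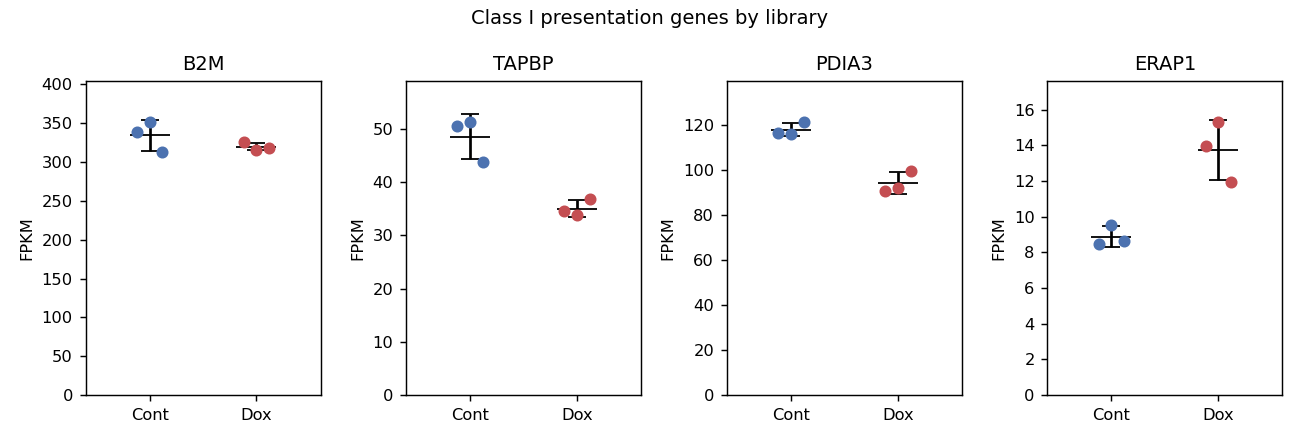
FPKM of B2M, TAPBP, PDIA3 and ERAP1 in each library, with dots for the 3 Cont (blue) and 3 Dox (red) libraries, the mean as a horizontal line and the SD as bars. The groups overlap for B2M and are separate for the other 3 genes, with ERAP1 higher and TAPBP and PDIA3 lower in Dox.

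B2M (ENSG00000166710.18, chromosome 15, 44711487 to 44718877, plus strand, GRCh38) encodes beta-2-microglobulin, the light chain of every classical class I molecule. Its FPKM was 338, 352 and 313 in the Cont libraries and 326, 316 and 319 in the Dox libraries. The 3 Dox values lay inside the range of the Cont values. The means were 334 ± 19.6 and 320.0 ± 5.07 (SD, n = 3), with a log2 change of -0.06 (95% interval -0.21 to 0.09, SE 0.07, limma adjusted p = 0.412) on the log2(FPKM + 1) scale. B2M ranked above about 97.5% of the genes of the table in Cont and 98.0% in Dox, and 95.04% of tested genes had a larger absolute log2 change. The sign of this small difference depended on scaling: it was 0.25 under quantile normalization (limma adjusted p = 0.0019) and 0.22 in TPM that leaves out mitochondrial mRNAs (limma adjusted p = 0.00401), where B2M was called higher.

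Beside this, the mitochondrially encoded genes held 3.00% to 4.67% of the summed FPKM in Cont and 13.2% to 14.7% in Dox, whose part in the result was tested only by that rescaling. The median log2 change over all tested genes was -0.06 as tested and 0.19 in TPM without those genes. Among the genes outside the list, those whose profile over the 6 libraries lay closest to that of B2M were SENP1, ERFE and TRPS1. Their root mean square differences from B2M, in log2(FPKM + 1) centred on each gene's mean, were 0.0198, 0.0240 and 0.0246. All 3 were far lower than B2M, at FPKM 6.68 to 7.84, 6.31 to 7.12 and 2.21 to 2.68. Like B2M they did not pass (limma adjusted p = 0.501, 0.637 and 0.558). The closeness thus describes small changes on this scale, and shared regulation was not tested.

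TAPBP (ENSG00000231925.11, chromosome 6, 33299694 to 33314387, minus strand) encodes tapasin, which bridges the heavy chain to the peptide transporter and edits the bound peptide. It was at FPKM 50.6, 51.4 and 43.8 in Cont and at 34.6, 33.8 and 36.8 in Dox. Every Dox library lay below every Cont library, and Cont replicate 3 was the lowest of its group. The means were 48.6 ± 4.20 and 35.1 ± 1.55 (SD, n = 3), a log2 change of -0.46 (95% interval -0.64 to -0.28, SE 0.08, limma adjusted p = 0.000442). The values of the 2 groups did not overlap for 3 of the 4 genes, with 1 higher and 2 lower in Dox, against 82.1% of all tested genes (38.4% higher and 43.7% lower). The fall kept its call under each of the other scalings and without each library in turn, and was at its smallest, -0.18, in TPM that leaves out mitochondrial mRNAs (limma adjusted p = 0.0326).

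PDIA3 (ENSG00000167004.12, chromosome 15, 43746392 to 43773279, plus strand) encodes ERp57, a disulfide isomerase that pairs with tapasin in the loading complex and also folds glycoproteins at large. Its FPKM was 116, 116 and 121 in Cont and 90.7, 92.0 and 99.7 in Dox. The Dox values were all lower, with Dox replicate 3 the closest to Cont. The means were 118 ± 3.01 and 94.2 ± 4.88 (SD, n = 3), a log2 change of -0.32 (95% interval -0.47 to -0.18, SE 0.06, limma adjusted p = 0.00112). The call ended under quantile normalization (-0.08, limma adjusted p = 0.281) and in TPM that leaves out mitochondrial mRNAs (-0.04, limma adjusted p = 0.55). ELL3, on the other strand, covers 14.8% of the exonic bases of PDIA3, and the sources used here do not say whether counting used strand.

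ERAP1 (ENSG00000164307.12, chromosome 5, 96760810 to 96808100, minus strand) encodes the aminopeptidase that trims long peptides to the length class I molecules bind. It was at FPKM 8.46, 9.53 and 8.64 in Cont and at 13.97, 15.3 and 11.9 in Dox. All 3 Dox libraries were above all 3 Cont libraries, and Dox replicate 3 was again the closest to Cont. The means were 8.88 ± 0.574 and 13.7 ± 1.70 (SD, n = 3), a log2 change of 0.57 (95% interval 0.34 to 0.80, SE 0.10, limma adjusted p = 0.000474). The call held under each alternative, with log2 changes from 0.50 without Dox replicate 2 to 0.86 in TPM that leaves out mitochondrial mRNAs. CAST, the calpastatin gene, overlaps the end of ERAP1 on the opposite strand and shares 3.76% of its exonic bases. CAST was far more abundant and moved the other way, from 371 ± 18.8 to 251.3 ± 4.23 FPKM (n = 3, SD; log2 change -0.56, limma adjusted p = 2.23e-05). Since it is not known whether counting used strand, CAST reads may have entered the ERAP1 values, which leaves the level of ERAP1 uncertain.

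Of the tested genes, 56.0% had a larger absolute log2 change than ERAP1, 64.2% a larger one than TAPBP and 73.8% a larger one than PDIA3. FOXO1 itself was at FPKM 0.741 to 0.889 in Cont and 2.01 to 3.50 in Dox. Since 38.4% of all tested genes were likewise higher in Dox without overlap, this rise is no check of the group labels. It is also unknown if the FOXO1 values include reads from the construct.

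Next to ERAP1 on chromosome 5 lie ERAP2, which encodes a second trimming aminopeptidase of the endoplasmic reticulum, and LNPEP, which encodes the related endosomal enzyme IRAP. The 67838 bases between ERAP1 and ERAP2 and the 15677 bases between ERAP2 and LNPEP separate 3 genes that changed in opposite directions. ERAP2 (96875939 to 96919716) went from FPKM 16.7, 17.3 and 15.6 to 7.15, 6.09 and 8.09, a log2 change of -1.12 (SE 0.10, limma adjusted p = 4.19e-06). LNPEP (96935394 to 97037515) went from 71.99 ± 0.922 to 33.5 ± 1.73 (n = 3, SD; log2 change -1.08, limma adjusted p = 2.08e-07).

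The ratio of ERAP1 to ERAP2 within a library does not depend on how the libraries are scaled to each other. It was 0.507, 0.551 and 0.555 in Cont and 1.95, 2.51 and 1.47 in Dox. By these values ERAP2 was the more abundant of the pair in each Cont library and ERAP1 in each Dox library. Any CAST reads counted under ERAP1 would raise the ratio, so the order of the pair in Dox is uncertain. The mean ratio was 0.538 ± 0.0267 in Cont and 1.98 ± 0.521 in Dox (SD, n = 3), 3.68 times as high, given as a description without a test.

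**Figure D2:**
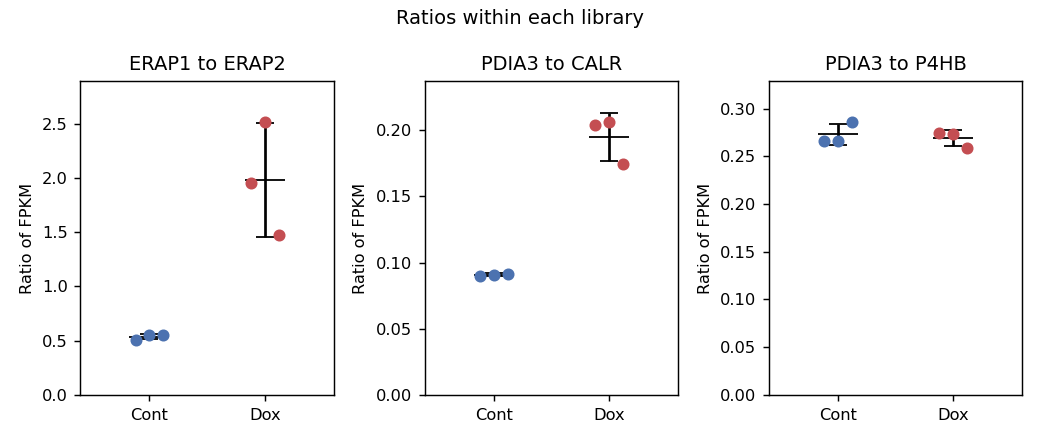
Ratio of FPKM between pairs of genes in each library, with dots for the 3 Cont (blue) and 3 Dox (red) libraries, the mean as a line and the SD as bars. ERAP1 to ERAP2 and PDIA3 to CALR are higher in each Dox library than in any Cont library, while PDIA3 to P4HB overlaps between the groups.

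The chaperone genes CALR and CANX were lower in Dox by more than PDIA3 and TAPBP. CALR, the gene of calreticulin, which holds the heavy chain in the loading complex, was at FPKM 1302, 1274 and 1324 in Cont and 445, 446 and 573 in Dox (log2 change -1.42, SE 0.10, limma adjusted p = 6.09e-07). CANX, the gene of calnexin, which receives new heavy chains before beta-2-microglobulin joins, went from 1895 ± 86.8 to 724 ± 86.4 (n = 3, SD; log2 change -1.39, limma adjusted p = 4.11e-07). The ratio of PDIA3 to CALR was 0.0895 to 0.0916 in Cont and 0.174 to 0.206 in Dox, 2.15 times as high on average. That of PDIA3 to P4HB, which encodes another disulfide isomerase, was 0.266 to 0.286 in Cont and 0.259 to 0.274 in Dox, and the groups overlapped.

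In the whole list of 12 loading and quality control genes outside the 4, 1 rose, 8 fell and 3 did not pass. The median log2 change was -0.61, against -0.06 over all tested genes, of which 37.6% rose, 42.8% fell and 80.4% were called in either direction. Besides CALR, CANX, ERAP2 and LNPEP, HSPA5, the gene of the chaperone BiP, fell by 1.16 on the log2 scale. UGGT1, which encodes the sensor that returns unfinished glycoproteins and poorly loaded class I molecules to calreticulin, was the rise, from 520.2 ± 24.2 to 705 ± 5.77 FPKM (n = 3, SD; log2 change 0.44, limma adjusted p = 0.000144). TAPBPL, the gene of the peptide editor TAPBPR, was at 1.67 ± 0.445 and 1.58 ± 0.313 FPKM (limma adjusted p = 0.801), and was called lower under quantile normalization (-0.36, limma adjusted p = 0.0452). GANAB (limma adjusted p = 0.145) and SEC61A1 (limma adjusted p = 0.0542) also did not pass, but GANAB was called higher in TPM that leaves out mitochondrial mRNAs (0.17, limma adjusted p = 0.0290) and SEC61A1 lower without Dox replicate 3 (-0.29, limma adjusted p = 0.00276). In TPM without mitochondrially encoded genes, 2 rose and 6 fell. In TPM, with median-of-ratios scaling, under quantile normalization and without Cont replicate 1, 1 rose and 7 fell. Without Dox replicate 3, 1 rose and 9 fell.

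HLA-F, a less polymorphic heavy chain, was at FPKM 2.59, 2.90 and 2.60 in Cont and 3.66, 5.96 and 3.38 in Dox (log2 change 0.50, limma adjusted p = 0.018). The high value of Dox replicate 2 set most of the spread, and the call ended under quantile normalization (0.32, limma adjusted p = 0.122) and without Cont replicate 3 (0.48, limma adjusted p = 0.0535). Without Dox replicate 2 the log2 change was 0.29 (limma adjusted p = 0.0387). Class I heavy chains are near-identical in parts and differ between people, and the sources used here do not say how shared reads were assigned, so the HLA-F values are uncertain.

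Class I-like genes went both ways. Of 6 tested heavy chain genes outside the 4, HLA-F included, 3 rose, 2 fell and 1 did not pass (median log2 change 0.14, against -0.06 over all tested genes, of which 37.6% rose and 42.8% fell). FCGRT, the gene of the neonatal Fc receptor, which pairs with beta-2-microglobulin and recycles IgG and albumin, rose from 41.1 ± 5.60 to 120.5 ± 13.2 FPKM (n = 3, SD; log2 change 1.53, SE 0.11, limma adjusted p = 8.19e-07). MR1, whose product also pairs with beta-2-microglobulin and presents vitamin B metabolites, rose from 20.1 ± 1.73 to 45.5 ± 8.29 (n = 3, SD; log2 change 1.12, limma adjusted p = 1.91e-05). CD1D, a lipid-presenting relative, was at 0.0545 to 0.114 FPKM in Cont and 0.868 to 1.14 in Dox and was not tested, because too few libraries reached FPKM 1.

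The iron regulator gene HFE was at 12.2 ± 0.730 and 10.4 ± 1.98 FPKM (n = 3, SD; log2 change -0.23, limma adjusted p = 0.116). It was called lower without Dox replicate 1 (-0.35, limma adjusted p = 0.0216) and was at -0.09 without Dox replicate 2. The 2 falls were in relatives that do not need beta-2-microglobulin. MICA, a stress ligand of the natural killer (NK) cell receptor NKG2D, went from 26.8 ± 0.829 to 17.2 ± 1.33 FPKM (n = 3, SD; log2 change -0.62, limma adjusted p = 4.08e-05). PROCR, the endothelial protein C receptor, fell from 30.7 ± 5.87 to 5.87 ± 1.40 (n = 3, SD; log2 change -2.21, limma adjusted p = 9.91e-07).

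**Figure D3:**
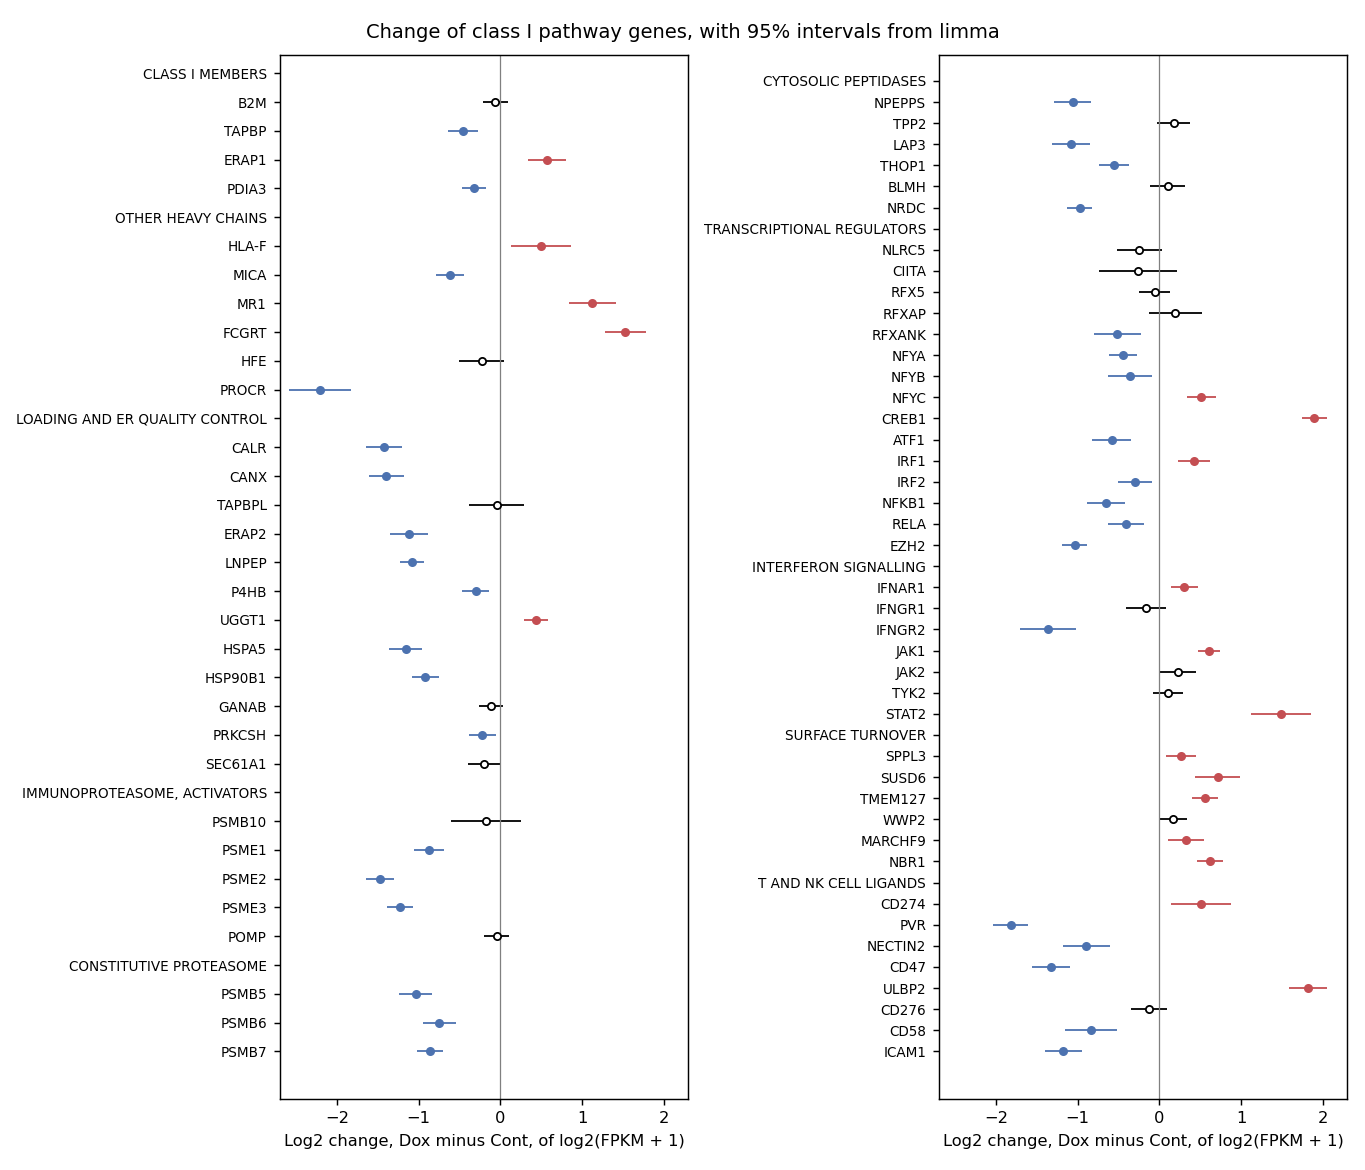
Log2 change (Dox minus Cont, log2(FPKM + 1), horizontal axis) of each tested gene of the class I pathway lists, with limma's 95% interval. Red marks genes that rose, blue genes that fell and open circles genes that did not pass; the 3 constitutive catalytic subunits all lie to the left of 0 and no surface turnover gene does.

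Peptide supply was covered by 3 lists, to be read against the 42.8% of all tested genes that fell and the 37.6% that rose. The catalytic subunits of the constitutive proteasome fell in 3 of 3 cases, with PSMB5 from 413 ± 34.8 to 201 ± 19.6 FPKM (n = 3, SD; log2 change -1.04, limma adjusted p = 2.83e-06), PSMB7 at -0.86 and PSMB6 at -0.75. Of 5 tested genes of the immunoproteasome and the proteasome activators, 0 rose, 3 fell and 2 did not pass (median log2 change -0.87). PSME2 and PSME1, the subunits of the interferon-inducible activator PA28, went from 151 ± 9.67 to 53.5 ± 3.48 FPKM and from 146 ± 12.1 to 79.4 ± 5.68 (n = 3, SD; log2 changes -1.48 and -0.87). PSME3, the gene of the nuclear activator PA28 gamma, fell by 1.23 on the log2 scale.

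PSMB10, the measured immunoproteasome subunit, was low and variable, at FPKM 7.74, 5.11 and 3.87 in Cont and 3.99, 5.04 and 4.95 in Dox (limma adjusted p = 0.401). POMP, a proteasome assembly factor, was at 50.2 ± 1.11 and 48.7 ± 2.72 (SD, n = 3; limma adjusted p = 0.564), though it was called higher in TPM that leaves out mitochondrial mRNAs (0.23, limma adjusted p = 0.00798). Of 6 cytosolic peptidases, which cut peptides before they reach the transporter, 0 rose and 4 fell (median -0.77). They were LAP3 (-1.08), NPEPPS (-1.06), NRDC (-0.98) and THOP1 (-0.56). TPP2 (0.17, limma adjusted p = 0.0992) and BLMH (0.10, limma adjusted p = 0.341) did not pass. However, these peptidases had 2 rises in TPM, with and without mitochondrial mRNAs, and under quantile normalization. They had 1 rise with median-of-ratios scaling and 1 without Dox replicate 3.

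Among 15 transcriptional regulators of class I genes, 3 rose, 8 fell and 4 did not pass (median log2 change -0.30). Over all tested genes 37.6% rose, 42.8% fell and 80.4% were called in either direction. With 1 library left out at a time, 7 to 9 of the regulators fell, and 10 fell under quantile normalization. In TPM that leaves out mitochondrial mRNAs, 4 rose and 4 fell. NLRC5, the main class I transactivator, was near the bottom of the measured range, at FPKM 1.20, 1.46 and 1.45 in Cont and 0.985, 0.793 and 1.23 in Dox, and did not pass (log2 change -0.24, limma adjusted p = 0.0919). It was called lower under quantile normalization (-0.59, limma adjusted p = 0.00191), with no variance trend (limma adjusted p = 0.0465) and without Dox replicate 3 (-0.33, limma adjusted p = 0.0312). CIITA, its class II counterpart, was at 1.33 ± 0.627 and 0.913 ± 0.371 (SD, n = 3; limma adjusted p = 0.271), and was called lower under quantile normalization (-0.61, limma adjusted p = 0.017) and without Cont replicate 1 (-0.50, limma adjusted p = 0.0321). Of the RFX complex, which both transactivators need, RFX5 was at 16.7 ± 0.937 and 16.0 ± 1.24 (limma adjusted p = 0.534). RFXAP did not pass either (limma adjusted p = 0.228). It did pass as a rise without Dox replicate 3 (0.34, limma adjusted p = 0.026) and in TPM that leaves out mitochondrial mRNAs (0.44, limma adjusted p = 0.0443). RFXANK, the remaining subunit gene, fell without overlap between the groups (log2 change -0.52, limma adjusted p = 0.00408). The RFXANK call ended in TPM that leaves out mitochondrial mRNAs (-0.25, limma adjusted p = 0.0826).

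CREB1, a factor that binds beside RFX at these promoters, rose from 32.8 ± 1.76 to 125 ± 6.26 FPKM (n = 3, SD; log2 change 1.90, SE 0.07, limma adjusted p = 8.72e-09). ATF1, its relative, went the other way (-0.58, limma adjusted p = 0.00055). EZH2, a histone methyltransferase known to repress class I genes, fell from 27.1 ± 0.613 to 12.7 ± 0.125 (n = 3, SD; log2 change -1.04, limma adjusted p = 3.43e-07), and the NF-kB subunit gene NFKB1 fell by 0.66 on the log2 scale.

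Of 7 tested interferon receptor and signalling genes, 3 rose, 1 fell and 3 did not pass (median log2 change 0.22), against 37.6% and 42.8% of all tested genes that rose and fell. In TPM, with or without mitochondrial mRNAs, 5 rose, and without Cont replicate 3, 4 rose and 2 fell. With median-of-ratios scaling, under quantile normalization and with the replicate number as a block, 4 rose and 1 fell. STAT2 encodes a factor that binds response elements together with IRF9. It was at FPKM 6.12, 6.95 and 10.8 in Cont and 23.1, 24.4 and 23.1 in Dox (log2 change 1.49, SE 0.16, limma adjusted p = 1.46e-05).

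IRF9 stayed below FPKM 1 in every library, from 0.420 to 0.937, and was not tested; nor was the type I receptor gene IFNAR2, at 0.422 to 1.09. IFNGR2, a chain of the interferon gamma receptor, fell from 15.1 ± 1.32 to 5.35 ± 1.35 (n = 3, SD; log2 change -1.36, limma adjusted p = 1.78e-05), while the kinase gene JAK1 rose by 0.61 in log2 (limma adjusted p = 7.11e-06). IFNAR1, the other chain gene of the type I receptor, rose by 0.31 (limma adjusted p = 0.0029). IFNGR1, JAK2 and TYK2 did not pass (limma adjusted p = 0.197, 0.0686 and 0.265). Without Cont replicate 3, IFNGR1 was called lower (-0.26, limma adjusted p = 0.0495) and JAK2 higher (0.28, limma adjusted p = 0.036). JAK2 was also called higher in TPM, with and without mitochondrial mRNAs, with median-of-ratios scaling and with the replicate number as a block. TYK2 was called higher in TPM (0.22, limma adjusted p = 0.0395), in TPM that leaves out mitochondrial mRNAs (0.38, limma adjusted p = 0.00291) and under quantile normalization (0.37, limma adjusted p = 0.00315).

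Another list held genes that remove class I molecules from the surface, and SPPL3, which does not but affects their recognition there. The list thus mixes roles. Of 6 tested, 5 rose, 0 fell and 1 did not pass (median log2 change 0.44), against 37.6% of all tested genes that rose, and the list as a group was not tested. The sixth, WWP2 (0.17, limma adjusted p = 0.0545), passed as a rise in TPM, with and without mitochondrial mRNAs, with median-of-ratios scaling, under quantile normalization and without Cont replicate 3 (0.22, limma adjusted p = 0.0186). SUSD6, TMEM127 and WWP2 encode partners in a complex that sends class I molecules to the lysosome. SUSD6 went from FPKM 2.98, 2.59 and 2.95 to 6.42, 5.11 and 4.44 (log2 change 0.71, limma adjusted p = 0.000453), and TMEM127 from 21.8, 21.9 and 23.0 to 32.4, 32.2 and 35.0 (log2 change 0.56, limma adjusted p = 3.89e-05). NBR1, an autophagy receptor that can carry class I molecules to degradation, rose from 36.8 ± 1.52 to 57.1 ± 3.77 (n = 3, SD; log2 change 0.62, limma adjusted p = 2.53e-05). MARCHF9, a membrane ubiquitin ligase, rose by 0.33 in log2 (limma adjusted p = 0.0126), a call that ended without Dox replicate 2 (limma adjusted p = 0.0553). SPPL3 went from 14.2 ± 0.965 to 17.2 ± 0.970 FPKM (n = 3, SD; log2 change 0.26, limma adjusted p = 0.0136). Its call ended without Cont replicate 1 (0.22, limma adjusted p = 0.0595).

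Other ligands that T and NK cells read beside class I went both ways. Of 8 tested, 2 rose, 5 fell and 1 did not pass (median log2 change -0.86). Of all tested genes, 37.6% rose, 42.8% fell and 80.4% were called in either direction, and the list as a group was not tested. ULBP2, a ligand of NKG2D, rose from 3.12 ± 0.454 to 13.5 ± 0.853 FPKM (n = 3, SD; log2 change 1.82, limma adjusted p = 1.4e-07), opposite to MICA, which encodes a ligand of the same receptor. PVR, a ligand of DNAM-1 and TIGIT, fell from 48.3 ± 3.88 to 13.0 ± 1.44 (log2 change -1.82, limma adjusted p = 7.37e-08), and CD47, the signal that restrains macrophages, from 24.0 ± 0.443 to 9.02 ± 1.44 (log2 change -1.33, limma adjusted p = 1.16e-06). The adhesion gene ICAM1 fell by 1.18 on the log2 scale. CD276 did not pass (limma adjusted p = 0.244) but was called lower without Dox replicate 3 (-0.23, limma adjusted p = 0.0236). The other rise, CD274 or PD-L1 (0.51, limma adjusted p = 0.0153), was low and lost its call under quantile normalization (limma adjusted p = 0.419) and without Cont replicate 2 (0.0598), Dox replicate 1 (0.0572) or Dox replicate 2 (0.054).

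Of 13 class II presentation genes listed, CTSS alone was measured. It encodes cathepsin S, a lysosomal protease, and rose from 3.14 ± 0.505 to 12.04 ± 0.824 FPKM (n = 3, SD; log2 change 1.66, limma adjusted p = 3.41e-07).

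**Figure D4:**
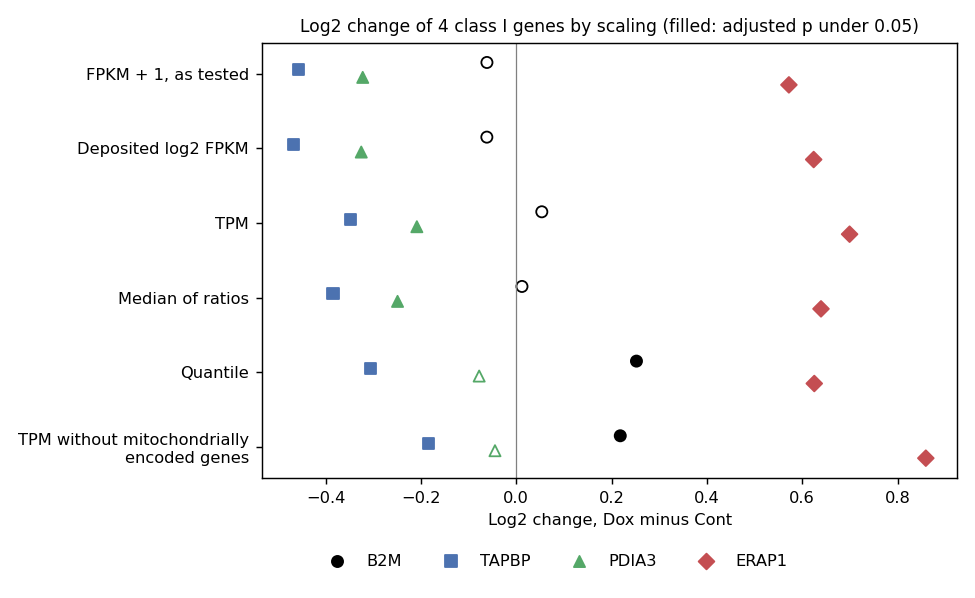
Log2 change (Dox minus Cont) of B2M, TAPBP, PDIA3 and ERAP1 under 6 ways of scaling the libraries, with filled symbols where the limma adjusted p was under 0.05. ERAP1 is to the right and TAPBP to the left of 0 in each row, B2M lies on either side of 0 and PDIA3 loses its call in 2 rows.

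Marker genes gave a mixed picture of the labelled cell type. Of 7 hepatocyte markers, 2 were measured: ALB was at 0.0941 to 1.71 FPKM over the 6 libraries, and AFP went from 13.4 ± 5.27 to 6.21 ± 2.12 FPKM (SD, n = 3; limma adjusted p = 0.0114). The keratin genes KRT8 and KRT18 were at 65.5 ± 2.93 and 58.9 ± 2.11 FPKM in Cont and VIM at 906 ± 7.83. Of the 5 tested epithelial and mesenchymal markers, KRT8, KRT18, VIM and CDH2 fell, and FN1 rose from 1.37 ± 0.483 to 7.59 ± 0.507 FPKM (n = 3, SD; log2 change 1.88, limma adjusted p = 9.56e-07). ACTA2, the tested one of the endothelial and stromal markers, rose from 1.23 ± 0.204 to 2.17 ± 0.587 FPKM (n = 3, SD; log2 change 0.49, limma adjusted p = 0.013). CD14, the measured one of 9 immune cell markers, was at 1.73 to 2.38 FPKM.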

How the data were processed

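The authors deposited 1 table of log2 FPKM for 6 libraries, although the file is named as FPKM; the unit was read from the values. Per the submitters' processing notes the build was GRCh38 and FastQC 0.11.7 was used; aligner, counting and annotation are not given in the sources used here. FPKM was taken as 2 to the power of each deposited log2 value. Columns were matched by title, since the labels name the Cont2 column for both Cont1 and Cont2. In 307 genes with a shared lowest value, the steps gave whole reads within 0.05 in 100% of values up to 20 reads, an offset of 1.58 to 2.62 reads and roughly 27.9 to 46.2 M (mega) reads per library, scaled by longest GENCODE 29 transcripts.

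limma 3.58.1 (R 4.3.3) was fitted on log2(FPKM + 1) over all 11526 genes that reached FPKM 1 in 3 or more libraries, with a variance trend, two-sided, Benjamini-Hochberg adjusted, threshold 0.05; with 5 libraries, the filter asked for 2. Fold changes are ratios of mean FPKM. It was tested on simulated data. Members and lists were chosen with earlier results of these data known, so no p is given over a list. All 4 measured members are named; of each related list, up to 4 genes with the largest change past the threshold and those that did not pass. CAST, CD1D, CD274, HLA-F, IRF9, IFNAR2, LNPEP, P4HB, RFXANK, SPPL3 and UGGT1 were added after their values were seen. Coordinates come from GENCODE 29 (GRCh38). Some genes of the related lists are not reported here and are in no list count.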

Additional observations from a re-analysis of the deposited data

How the results depend on the processing

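Of the 4 measured members, 2 rose and 1 fell under quantile normalization, and likewise 2 and 1 in TPM that leaves out mitochondrial mRNAs; under the other alternatives 1 rose and 2 fell. Leaving out each library in turn gave 1 rise and 2 falls each time, with 4156 to 4438 genes higher and 4685 to 4947 lower over the table. The share of calls that were higher was 46.7% as tested and 59.0% in TPM that leaves out mitochondrial mRNAs. The replicate number as a block gave 1 member higher and 2 lower, with 4335 genes higher and 4937 lower; same-numbered libraries did not deviate together (correlations 0.0371, -0.00483 and 0.0793), so the numbers were not taken as pairs.

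Over 75 genes and 16 alternatives, 32 log2 changes in 13 genes turned sign, 28 calls in 11 genes were lost and 37 in 16 genes gained, those with a turned sign included. The log2 changes that turned sign were as follows. In TPM, B2M was at 0.0535, TAPBPL at 0.0330, GANAB at 0.00467, POMP at 0.0703 and RFX5 at 0.0517. In TPM that leaves out mitochondrial mRNAs, B2M was at 0.22, HFE at 0.0307, TAPBPL at 0.15, GANAB at 0.17, PRKCSH at 0.0555, SEC61A1 at 0.0800, PSMB10 at 0.0627, POMP at 0.23, RFX5 at 0.21, IFNGR1 at 0.0971 and CD276 at 0.15. With median-of-ratios scaling, B2M was at 0.0119, TAPBPL at 0.00236, POMP at 0.0290 and RFX5 at 0.0113. Under quantile normalization, B2M was at 0.25, P4HB at 0.0103, GANAB at 0.14, PRKCSH at 0.0201, SEC61A1 at 0.0666, POMP at 0.13, RFX5 at 0.0382, RFXAP at -0.13 and CD276 at 0.00327. With 1 library left out at a time, TAPBPL ranged from -0.16 (without Cont replicate 1) to 0.0777 (without Cont replicate 3) and PSMB10 from -0.37 (without Cont replicate 3) to 0.0486 (without Cont replicate 1). The cause was not tested. Some genes were near or under FPKM 1, among them CD1D, IRF9, IFNAR2 and NLRC5, and whether depth limits their values was not tested.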
